A study of Mus musculus with 4 samples.

Results

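The unfolded protein response and the folding machinery of the endoplasmic reticulum (ER) were followed in mouse Th17 cells through 38 genes, taken by symbol from the 52636 genes of the deposited expression table. The genes comprised 7 stress sensors and their effectors, 12 genes grouped as chaperones and co-chaperones and 5 grouped as disulfide enzymes. A further 8 were genes of ER-associated degradation (ERAD) and 6 of the translocation channel. RNA sequencing compared 2 libraries labelled PP2A WT with 2 labelled PP2A cKO, PP2A being a serine/threonine phosphatase. All cells were of the C57BL/6 strain. Naive T cells of both genotypes were primed for 2 days beside irradiated antigen presenting cells, with 2 µg/ml each of antibodies to CD3 and CD28, 2 ng/ml TGFβ1, 20 ng/ml IL-6 and 10 µg/ml each of antibodies to IL-4 and IFNγ. PMA at 50 ng/ml and ionomycin at 500 ng/ml were then given for 4 h to both genotypes, so every value describes restimulated cells. The labels name neither the PP2A subunit that was targeted nor the promoter or cells in which it was removed. The submitters call the replicates biological without tying them to separate mice or cultures, so the p-values cover library-to-library spread, which may be technical in part.

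Proteins that enter the ER are folded by chaperones such as BiP, joined by disulfide bonds by the protein disulfide isomerases, and sent to the cytosol for destruction when folding fails. Membrane sensors report the load of unfolded protein, namely IRE1, which splices the Xbp1 mRNA, ATF6, which is cut in the Golgi to release a transcription factor, and PERK, which phosphorylates the initiation factor eIF2α and so slows translation. XBP1 and ATF6 raise the transcription of chaperone, ERAD and translocation genes, and the pathway is active in cells that secrete much protein, among them activated T cells that release cytokines.

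The targeted phosphatase was looked at through its catalytic genes Ppp2ca and Ppp2cb and its scaffold genes Ppp2r1a and Ppp2r1b. Values are in FPKM, which is fragments scaled by gene length and by a size set for each library. Ppp2ca had 42.2 and 50.1 FPKM in WT and 41.8 and 34.5 FPKM in cKO. Both cKO values were the lower, replicate 1 only just, and the adjusted p from limma was 0.36, above the threshold. The groups overlapped for Ppp2cb, Ppp2r1a and Ppp2r1b (adjusted p from 0.684 to 0.91). With the subunit not named, and with a gene total that also counts transcripts lacking a deleted exon, these values do not check the genotype labels, on which every direction given here rests.

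Most genes of the ER folding machinery had higher values in cKO than in WT, by small amounts, and none of the differences passed the test. In bulk RNA, more cells with a high level and more RNA per cell cannot be told apart. The largest log2 fold changes above 0 were those of Dnajb9, a BiP co-chaperone (0.63), the transcription factor gene Xbp1 (0.42) and Calr, calreticulin (0.40), and the lowest was that of Atf6b (-0.46). In 27 of the 38 genes both cKO libraries were above both WT libraries, and in 2, Atf6b and Derl3, both were below. Over all tested genes these shares were 27.2% and 28.7%. The median log2 fold change of the members was 0.17, with a range of -0.46 to 0.63, beside a median of -0.00 over all tested genes (range -2.18 to 3.37). All 38 genes passed the filter at a mean of 1 FPKM, Derl3 just above it. These counts depended on the scaling. In TPM, where every library is rescaled to the same sum, the median of all genes was -0.09, 16 members had both cKO libraries above WT and 6 both below, and the shares over all genes were 17.8% and 38.9%. Relative to the median of all genes the members' median was higher by 0.17 in FPKM and by 0.17 in TPM.

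No member passed the test for a difference between the genotypes: 0 of 38 were called higher and 0 lower (limma on log2(FPKM + 1), Benjamini-Hochberg adjusted p under 0.05 over 10562 genes, adjusted p from 0.108 to 0.949). Across all tested genes 0.814% were called higher and 0.256% lower. With voom on the reads recovered from FPKM, which called 284 genes (2.69%) higher and 263 (2.49%) lower against 86 and 27, the members called were also 0 and 0. At an unadjusted p under 0.05, 9 members were higher in cKO and 0 lower, against 9.56% and 10.3% of all tested genes. The 9 were Xbp1, Hspa5, Dnajb9, Calr, Hsp90b1, Sdf2l1, Pdia4, Pdia6 and Ssr3. For any one gene, exact permutation of 2 libraries against 2 allows no two-sided p under 0.333.

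**Figure D1:**
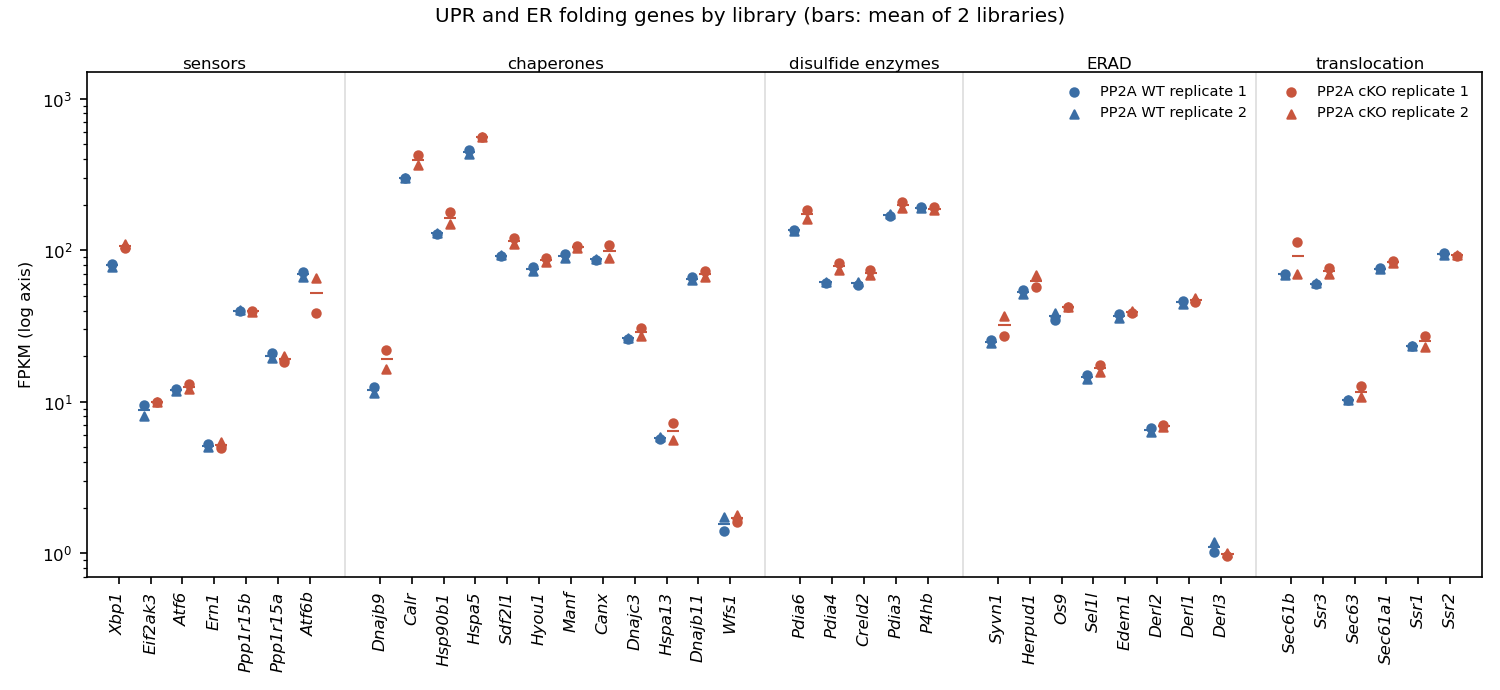
FPKM (y axis, log scale) of the 38 genes (x axis, by role) per library, 2 of PP2A WT in blue and 2 of PP2A cKO in red, with bars for the means. Hspa5 has the highest level, 431 to 557 FPKM, and Derl3 the lowest, 0.963 to 1.18 FPKM, while most chaperone and disulfide enzyme genes show both cKO points above both WT points.

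Among the sensors, the gene of the transcription factor XBP1 had the lowest adjusted p of all 38 members. Xbp1 (chromosome 11, 5520659 to 5525893, plus strand, build GRCm38) was at 81.6 and 77.8 FPKM in WT, and its cKO libraries were at 104 and 109.9 FPKM. Both cKO values lay above both WT values, and the cKO libraries were close to each other. The means were 79.7 ± 2.69 and 107 ± 4.07 FPKM (SD, n = 2). The log2 fold change was 0.42 ± 0.10 (SE, 95% interval 0.17 to 0.67), short of the threshold (limma, adjusted p = 0.108). It was 0.44 after a correction for transcript GC content, and then passed (adjusted p = 0.0487), where 2.36% of all tested genes were called higher and 2.52% lower. With a replicate block added to that correction the call was lost (adjusted p = 0.115). Gene totals add the unspliced and the spliced Xbp1 mRNA, so they carry no reading of IRE1 activity.

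Ern1, which encodes the IRE1α kinase and RNase that splices Xbp1, had 5.25 and 5.04 FPKM in WT and 4.98 and 5.44 FPKM in cKO. The groups overlapped, and the log2 fold change was 0.02 (95% interval -0.22 to 0.25; limma, adjusted p = 0.933). Eif2ak3, the gene of PERK, had 9.52 and 8.08 FPKM in WT and 9.92 and 10.0 FPKM in cKO. Its cKO libraries had an SD of 0.0560 FPKM (n = 2) and lay just above the higher WT library (log2 fold change 0.17, adjusted p = 0.424). It was 0.27 without WT replicate 1 and 0.06 without WT replicate 2.

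The ATF6 family pair pointed apart in value. Atf6 had 12.1 and 11.8 FPKM in WT and 13.1 and 12.1 FPKM in cKO. The lower cKO library was at the level of the higher WT library (log2 fold change 0.07; limma, adjusted p = 0.689), and the sign turned in TPM. Atf6b (chromosome 17, 34647146 to 34655074, plus strand), a paralogue of Atf6 with weaker transcriptional activity, had 72.0 and 66.8 FPKM in WT and 38.4 and 65.4 FPKM in cKO. Replicate 1 alone was far below WT, and replicate 2 lay just under the lower WT library. The means were 69.4 ± 3.71 for WT and 51.9 ± 19.1 for cKO (SD, n = 2). The log2 fold change was -0.46 ± 0.25 (SE; limma, adjusted p = 0.37), and without cKO replicate 1 the log2 fold change was -0.08. Atf6b had the highest transcript GC content of the 38 genes, 60.3%, and its log2 fold change was -0.35 after the GC correction.

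Of the PERK branch, Ppp1r15a and Ppp1r15b encode the subunits GADD34 and CReP, which bring protein phosphatase 1 to eIF2α and reverse the action of PERK. Ppp1r15a had 20.9 and 19.4 FPKM in WT and 18.4 and 20.1 FPKM in cKO. Ppp1r15b had 39.7 and 40.0 FPKM in WT and 39.8 and 39.3 FPKM in cKO. For both genes the groups overlapped, with log2 fold changes of -0.07 (95% interval -0.32 to 0.18) and -0.01 (-0.24 to 0.21; limma, adjusted p = 0.726 and 0.949). Over the 7 sensors and effectors the median log2 fold change was 0.02, and 3 had both cKO libraries above WT against 1 below, where 27.2% and 28.7% of all tested genes did. In TPM the sign of the median turned, to -0.07, with 1 above and 3 below (17.8% and 38.9% of all genes).

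In FPKM the chaperones formed the most even group in sign. All 12 had a log2 fold change above 0, in FPKM, TPM, median-of-ratios scaling, voom and after the GC correction, where 49.4% of all tested genes did so in FPKM. After the GC correction all 5 disulfide enzymes and all 6 translocation genes were above 0 too, beside 4896 of 10550 genes. In 10 of the 12 both cKO libraries were above both WT libraries, the exceptions being Hspa13 and Wfs1 (27.2% of all tested genes; in TPM 7 of the 12 and 17.8%), and their median log2 fold change was 0.18. Taken singly against the WT mean, cKO replicate 1 had a median of 0.30 and replicate 2 one of 0.15. The sign turned for Hspa13 without cKO replicate 1 and for Wfs1 without WT replicate 1.

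Hspa5 (chromosome 2, 34771970 to 34777547, plus strand) encodes BiP, the ER Hsp70 that also holds the sensors inactive. It ranked at 89 of all genes by mean WT level, with 460.4 and 431 FPKM in WT and 555 and 557 FPKM in cKO. The cKO libraries were nearly equal and above both WT libraries. Mean FPKM was 24.8% higher in cKO, from 446 ± 21.1 to 556 ± 1.15 (SD, n = 2; log2 fold change 0.32 ± 0.10, 95% interval 0.06 to 0.58; limma, adjusted p = 0.19). It took 0.197% and 0.188% of the gene-assigned reads in WT and 0.234% in each cKO library.

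Dnajb9 (chromosome 12, 44205559 to 44210326, minus strand), which encodes the BiP co-chaperone ERdj4 and is a target of XBP1, had the largest log2 fold change of the 38 genes in either direction. It had 12.6 and 11.5 FPKM in WT and 22.0 and 16.5 FPKM in cKO. The groups did not overlap, and cKO replicate 1 was the higher by a wide margin. The means were 12.0 ± 0.772 and 19.2 ± 3.88 FPKM (SD, n = 2; log2 fold change 0.63 ± 0.15, 95% interval 0.23 to 1.02; limma, adjusted p = 0.119). Its transcript GC content, 40.6%, was among the lowest of the members, and the log2 fold change was 0.53 after the GC correction and 0.43 without cKO replicate 1.

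Calr (chromosome 8, 84841850 to 84846934, minus strand) encodes calreticulin, a calcium-binding lectin chaperone of glycoproteins. Its level was 299 and 298 FPKM in WT and 428 and 365 FPKM in cKO. WT values were almost identical, and both cKO values were higher (means 299 ± 0.586 and 396 ± 44.1, SD, n = 2; log2 fold change 0.40 ± 0.12; limma, adjusted p = 0.165). The membrane-bound partner Canx, calnexin, had 85.9 and 88.0 FPKM in WT and 108 and 88.3 FPKM in cKO, so that cKO replicate 2 was level with WT (log2 fold change 0.17, adjusted p = 0.495). Without cKO replicate 1 the log2 fold change of Canx was 0.02.

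Hsp90b1, the gene of the ER Hsp90 protein GRP94, had 129 and 130.0 FPKM in WT and 179 and 148 FPKM in cKO (log2 fold change 0.33, 95% interval 0.01 to 0.65; limma, adjusted p = 0.247). Without cKO replicate 1 the log2 fold change of Hsp90b1 was 0.19. Sdf2l1, a partner of BiP and ERdj3, had 91.1 and 93.1 FPKM in WT and 120.4 and 109.1 FPKM in cKO (0.31, adjusted p = 0.195). In both genes the cKO libraries were the higher, with replicate 1 above replicate 2. The remaining genes grouped as chaperones were Hyou1, Manf, Dnajc3, Hspa13, Dnajb11 and Wfs1. Their log2 fold changes ran from 0.07 for Wfs1, the wolframin gene at 1.40 to 1.78 FPKM, to 0.19 for Hyou1, the Hsp110-type exchange factor of BiP. Hspa13 had 5.65 and 5.84 FPKM in WT and 7.27 and 5.56 FPKM in cKO, with cKO replicate 2 under both WT libraries.

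**Figure D2:**
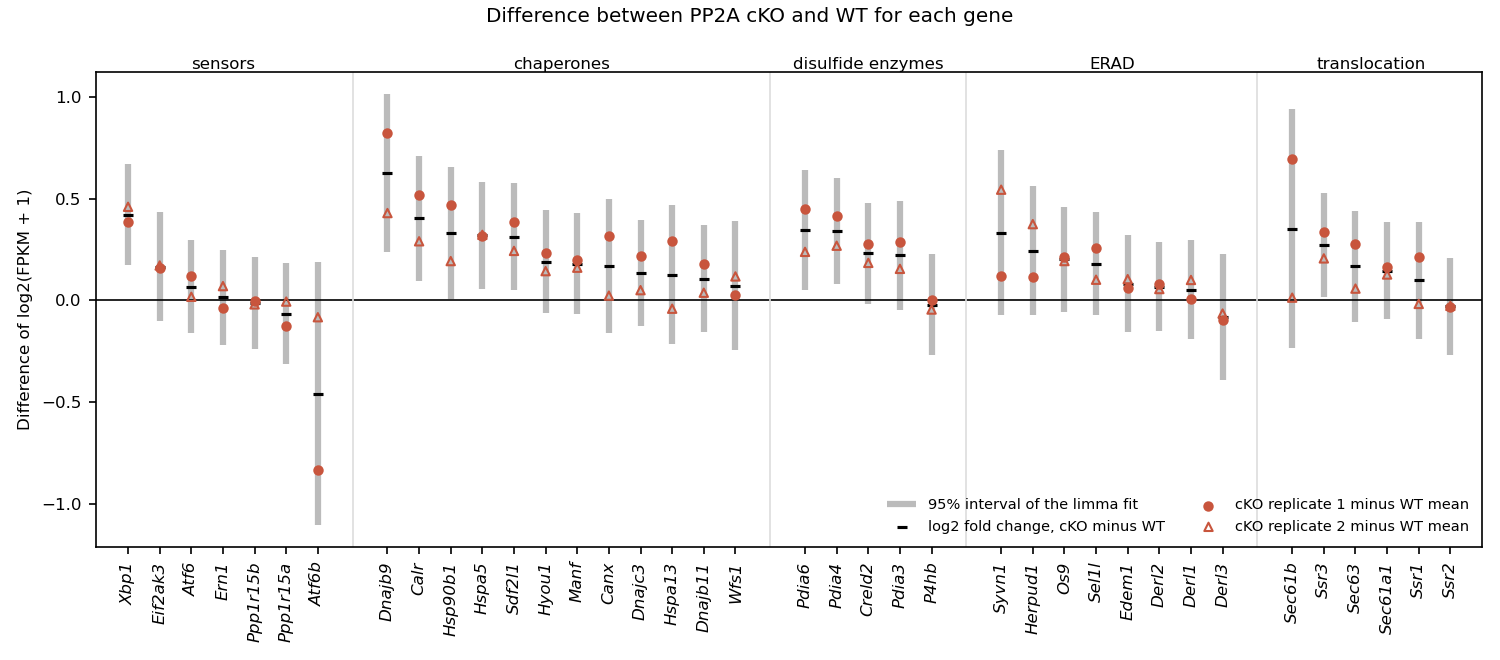
Difference of log2(FPKM + 1) between PP2A cKO and WT (y axis) for the 38 genes (x axis, by role): black ticks are log2 fold changes, grey bars the 95% intervals of the limma fit, filled circles cKO replicate 1 and open triangles cKO replicate 2, each minus the WT mean. Xbp1 and Hspa5 show both cKO libraries close together above 0, while Atf6b and Sec61b show cKO replicate 1 far from cKO replicate 2.

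The disulfide enzymes were the group with the highest median log2 fold change, 0.23 over 5 genes, and in 4 both cKO libraries lay above WT, as they did in 27.2% of all tested genes. In TPM 4 were above and 1 below, with a median of 0.14. Pdia6 (chromosome 12, 17266545 to 17284770, plus strand), an isomerase that also acts on IRE1, had 136 and 134 FPKM in WT and 185 and 159.6 FPKM in cKO. Pdia4, the isomerase ERp72, had 61.1 and 61.9 FPKM in WT and 82.2 and 74.2 FPKM in cKO. In both genes each cKO library exceeded WT, by log2 fold changes of 0.34 ± 0.12 and 0.34 ± 0.10 (SE; limma, adjusted p = 0.2 and 0.165). Creld2, an ER stress gene with isomerase-like activity, had 59.4 and 61.7 FPKM in WT and 73.6 and 68.8 FPKM in cKO (0.23, adjusted p = 0.276). Pdia3, the partner of calnexin and calreticulin known as ERp57, had a log2 fold change of 0.22 (adjusted p = 0.319). P4hb, which encodes PDI itself and also the β subunit of prolyl 4-hydroxylase, was the exception. Its level was 194 and 189 FPKM in WT and 192 and 185 FPKM in cKO, so the genotypes overlapped (log2 fold change -0.02, 95% interval -0.27 to 0.23, adjusted p = 0.912).

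Promoter sequences were examined after the values were seen, for the ER stress response element (ERSE), the known binding element of ATF6 and XBP1. RefSeq promoter windows (GRCm38.p6, 250 bases before to 50 after the start) were held for 30 of the 38 members. Atf6, Derl1, Hspa13, Hyou1, Manf, Ppp1r15b, Sec61a1 and Ssr2 had no entry. Both strands were searched for the ERSE, CCAAT and CCACG with 9 bases between them, which was present in 9 of the 30 members (30%) and in 37 of 27025 genes with a window (0.137%). The members were listed as genes of this response, whose known element is the ERSE, so its share among them is no finding of these data. The stretches are shown 5′ to 3′ on the strand of the gene. That of Hspa5 lies before the RefSeq start but inside the gene bounds of the expression table, which begin at 34771970. Capitals mark CCAAT and CCACG, or their reverse complements ATTGG and CGTGG where the element runs the other way.
Hspa5, chr2:34772020-34772048 (+): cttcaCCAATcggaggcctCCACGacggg
Calr, chr8:84847065-84847103 (-): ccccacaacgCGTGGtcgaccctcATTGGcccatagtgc
Canx, chr11:50325790-50325828 (-): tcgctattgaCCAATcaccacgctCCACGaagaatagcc
Dnajc3, chr14:118937817-118937855 (+): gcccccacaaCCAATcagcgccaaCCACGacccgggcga
Pdia6, chr12:17266481-17266519 (+): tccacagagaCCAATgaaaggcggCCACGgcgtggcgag
Creld2, chr15:88819510-88819548 (+): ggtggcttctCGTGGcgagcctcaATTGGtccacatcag
Syvn1, chr19:6046522-6046560 (+): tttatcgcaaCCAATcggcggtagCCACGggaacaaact
Derl3, chr10:75893232-75893270 (+): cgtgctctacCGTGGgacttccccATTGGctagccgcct
Hsp90b1, with 2 copies, chr10:86705523-86705666 (-): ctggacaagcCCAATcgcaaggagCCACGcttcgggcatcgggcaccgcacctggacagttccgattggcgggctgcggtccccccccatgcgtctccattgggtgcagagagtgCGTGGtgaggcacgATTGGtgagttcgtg

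Of the 9 genes that carry the ERSE, 8 had both cKO libraries above both WT libraries and Derl3 had both below, beside 27.2% and 28.7% of all tested genes, with a median log2 fold change of 0.32. Among the 21 members with a window and no ERSE the median was 0.17, and 15 had both cKO libraries above WT. These 21 included Dnajb9 (0.63) and Xbp1 (0.42), the largest log2 fold changes above 0 of the 38 genes, and Atf6b (-0.46), the lowest. All ERSE genes but Syvn1 and Derl3 were in the chaperone and disulfide groups, so the ERSE and the role cannot be told apart. Only exact matches were searched. ERSE-II, ATTGG and CCACG with 1 base between them, holds the same letters in another arrangement, the first part reversed, and occurred in Dnajb11 and Herpud1 and in 0.0444% of all genes. The unfolded protein response element TGACGTGG, which shares CGTGG with the reversed ERSE, was in 0 of the 30 members and 0.714% of all genes. The amino acid response element TTGCATCA, a site type of ATF4, was in Herpud1 alone and in 1.03% of all genes. These matches describe letters in the windows, and no binding was measured. Whether any element bears on the directions was not tested.

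Of the 8 ERAD genes 6 had both cKO libraries above WT and 1 both below, beside 27.2% and 28.7% of all tested genes, with a median log2 fold change of 0.13. In TPM 2 were above and 1 below, beside 17.8% and 38.9%, and the median was 0.04. Syvn1 (chromosome 19, 6046576 to 6053712, plus strand) encodes HRD1, the ubiquitin ligase at the centre of the retrotranslocation complex, and had 25.6 and 24.3 FPKM in WT and 27.2 and 36.9 FPKM in cKO. Both cKO values were above WT, with replicate 2 the higher (log2 fold change 0.33 ± 0.16, SE; limma, adjusted p = 0.322). The value rested on replicate 2: it was 0.54 without cKO replicate 1 and 0.12 without cKO replicate 2. Herpud1, the HERP scaffold of the same complex, had 54.3 and 51.5 FPKM in WT and 57.3 and 68.8 FPKM in cKO, again with replicate 2 the higher (0.24, adjusted p = 0.341, and 0.11 without cKO replicate 2).

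Os9, a lectin that selects misfolded glycoproteins for HRD1, had 34.7 and 38.7 FPKM in WT and 42.5 and 42.0 FPKM in cKO. Its cKO libraries agreed more closely than its WT libraries (log2 fold change 0.20, 95% interval -0.06 to 0.46; limma, adjusted p = 0.338). Sel1l, the partner that stabilises HRD1, had a log2 fold change of 0.18, and the mannosidase-like gene Edem1 0.08. The derlin genes Derl1 and Derl2, whose products line the exit channel, had 0.05 and 0.07, and Edem1, Derl1 and Derl2 turned sign in TPM. Derl3, a derlin of secretory cells such as plasma cells, was scarcely present at 1.03 and 1.18 FPKM in WT and 0.963 and 1.01 FPKM in cKO. Both cKO values were the lower, on as few as 39 reads in a library (log2 fold change -0.08, 95% interval -0.39 to 0.23).

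For the translocation channel, the largest value came from a single library. Sec61b, the β subunit of the Sec61 channel, had 69.7 and 68.8 FPKM in WT and 112.5 and 69.9 FPKM in cKO. Replicate 1 was far above the rest and replicate 2 was level with the WT libraries (log2 fold change 0.35 ± 0.23, SE; limma, adjusted p = 0.433). Without cKO replicate 1 the log2 fold change was 0.01. Ssr3, the γ subunit of the translocon-associated TRAP complex, had 59.5 and 60.5 FPKM in WT and 76.0 and 69.4 FPKM in cKO, both above WT (0.27 ± 0.10, SE, adjusted p = 0.231). Sec63, a J-domain protein that couples BiP to the channel, had 10.3 and 10.2 FPKM in WT and 12.6 and 10.7 FPKM in cKO (0.17, adjusted p = 0.428, and 0.06 without cKO replicate 1). Sec61a1, the channel pore, had a log2 fold change of 0.15, and the other TRAP subunits Ssr1 and Ssr2 had 0.10 and -0.03 with overlapping groups. Over the 6 genes the median was 0.16, and 4 had both cKO libraries above WT (27.2% of all tested genes; in TPM 2 of the 6 and 17.8%). Against the WT mean, cKO replicate 1 alone had a median of 0.24 and cKO replicate 2 one of 0.03.

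**Figure D3:**
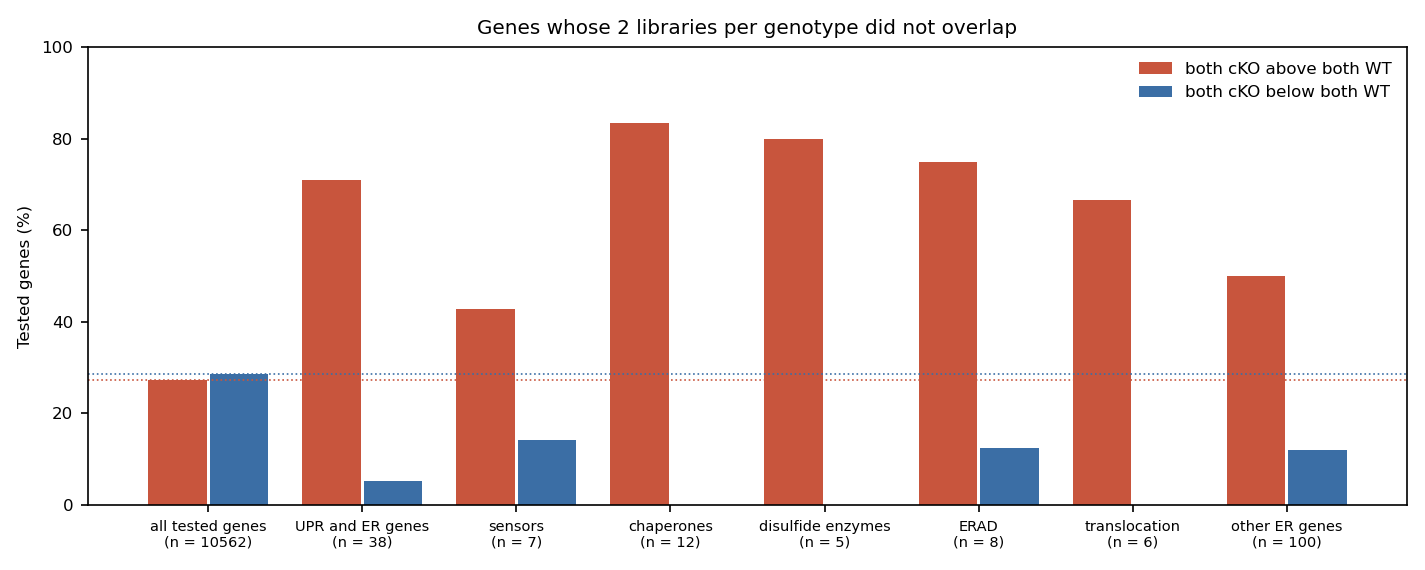
Percent of tested genes (y axis) for which both PP2A cKO libraries were above (red) or below (blue) both PP2A WT libraries, in FPKM, for all tested genes, the 38 members, each role and the other ER genes (x axis, with the number of genes). Chaperones stand at 83.3% above and 0% below, and the dotted lines mark all tested genes at 27.2% and 28.7%.

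The 38 genes together took 1.03% of the gene-assigned reads in each WT library and 1.21% and 1.14% in the cKO libraries. The chaperones took 0.521% and 0.514% in WT and 0.644% and 0.590% in cKO, whereas the sensors took 0.0970% and 0.0946% in WT and 0.0939% and 0.103% in cKO.

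The cKO libraries differed from each other along transcript GC content, and members differed between the cKO libraries along it. Across all tested genes the median of cKO replicate 1 minus the WT mean went from 0.18 in the most AT-rich of 10 groups of genes to -0.30 in the most GC-rich, while that of cKO replicate 2 stayed between -0.02 and 0.02. Over the 38 members Spearman's rho between GC content and the difference between the cKO libraries was -0.58, a description over genes that share those libraries. Member GC content ran from 39.8% to 60.3%, with a median of 50.3% beside 49.6% over all tested genes. After the GC correction the members' median log2 fold change was 0.16 and 33 of 38 were above 0, against 0.17 and 32 before it. Against the WT mean the members' median was 0.21 in cKO replicate 1 and 0.11 in cKO replicate 2, and 29 and 30 members were above both WT libraries in the respective library, where 43.2% and 40.5% of all tested genes were.

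**Figure D4:**
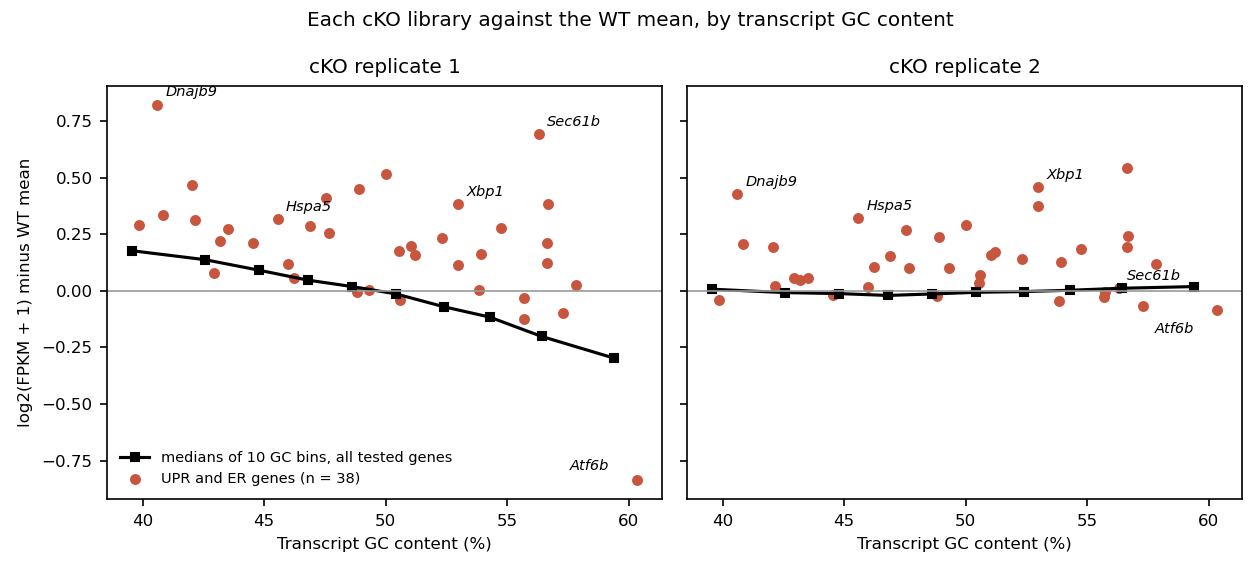
Each cKO library's log2(FPKM + 1) minus the WT mean (y axis) against transcript GC content in percent (x axis), with red points for the 38 members and black squares for the medians of 10 GC groups of all tested genes. The black line runs from 0.18 to -0.30 in cKO replicate 1 and stays near 0 in cKO replicate 2, and most red points lie above it in both panels.

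Values and calls depended on which library was left out. Leaving out 1 library moved the log2 fold change by over 1.5 times, or turned its sign, in 25 of the 38 members: in 19 without cKO replicate 1, 17 without cKO replicate 2, and 11 without either WT replicate in turn. The 13 members that stayed within 1.5 times were Xbp1, Hspa5, Hyou1, Dnajb9, Sdf2l1, Calr, Manf, Pdia3, Pdia4, Pdia6, Creld2, Sec61a1 and Ssr3. With a cKO library left out the spread came from the WT pair alone, and the lone cKO library was assumed to vary as WT did. Without cKO replicate 2, where 13.2% of all tested genes were called higher and 15.3% lower, 13 members were called higher and Atf6b lower. Without cKO replicate 1 the only call was Syvn1, where 1.40% of all genes were called higher and 1.08% lower. Without WT replicate 1 (0.625% higher and 0.0947% lower over all genes) and without WT replicate 2 (0.464% and 0.0568%) limma called 0 members, as it did with all 4 libraries. Which library or which variance moved these calls was not tested.

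A wider list of ER genes was examined beside the members. Of 121 further genes 100 were tested, and limma called 0 higher and 0 lower, beside 0.814% and 0.256% of all tested genes. At an unadjusted p under 0.05 with limma 16 were higher and 4 lower, beside 9.56% and 10.3%. With voom 1 was called higher, Creld1, and 0 lower, beside 2.69% and 2.49%. Both cKO libraries were above WT for 50 of the 100 and below for 12, beside 27.2% and 28.7% of all tested genes, with a median log2 fold change of 0.11. In TPM 32 of 105 were above and 25 below, beside 17.8% and 38.9%, with a median of 0.02. Among 13 sensors and transcription factors of the response the most changed in value was Chac1, a glutathione-degrading target of ATF4, with 2.59 and 1.25 FPKM in WT and 2.59 and 3.40 FPKM in cKO (0.48; limma, adjusted p = 0.347). Its groups overlapped, and the log2 fold change was 0.15 without WT replicate 2 and 0.82 without WT replicate 1. Ddit3, the gene of the stress factor CHOP, had 5.73 and 5.96 FPKM in WT and 8.76 and 7.89 FPKM in cKO, clear of each other (0.45 ± 0.09, SE, adjusted p = 0.0924). Atf4, the gene of the transcription factor downstream of PERK, had 172 and 171 FPKM in WT and 175 and 189.5 FPKM in cKO (0.08, adjusted p = 0.654). Of these 13 sensors and factors 7 had both cKO libraries above WT and 2 both below, beside 27.2% and 28.7% of all tested genes. Ddit3, Atf4 and Creld1 were chosen after their values were seen.

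Of 15 further chaperones Fkbp11, a prolyl isomerase of secretory cells, was the most changed in value, at 2.17 and 2.79 FPKM in WT and 4.31 and 3.39 FPKM in cKO (0.48; limma, adjusted p = 0.178). In that list 9 of 15 log2 fold changes were above 0, beside 49.4% of all tested genes. Both cKO libraries were above WT in 7 (46.7%) and below in 5 (33.3%), beside 27.2% and 28.7%. Of 17 further disulfide and redox genes, Vkorc1, the vitamin K epoxide reductase, had 1.09 and 1.31 FPKM in WT and 3.05 and 1.90 FPKM in cKO (0.64, adjusted p = 0.159, and 0.40 without cKO replicate 1). Of the 17, 8 (47.1%) were above and 0 below WT in both cKO libraries, beside the same 27.2% and 28.7%. Creld1, a relative of Creld2, had 3.25 and 3.03 FPKM in WT and 4.67 and 4.91 FPKM in cKO (0.48, adjusted p = 0.0788 with limma and 0.0424 with voom). Of 24 further ERAD genes the most changed in value was Rnf5, a membrane ubiquitin ligase, with 24.7 and 22.2 FPKM in WT and 17.9 and 16.4 FPKM in cKO, both below WT (-0.43, adjusted p = 0.113). Rnf5 went against its list, in which 17 of 24 log2 fold changes were above 0, beside 49.4% of all tested genes. In 12 of the 24 both cKO libraries were above WT and in 3 both below, beside 27.2% and 28.7%. In the 31 further translocation genes the most changed in value was an entry of Srp54a, a signal recognition particle gene with near-identical copies, so its reads are uncertain. It had 1.32 and 4.98 FPKM in WT and 5.36 and 4.38 FPKM in cKO, with overlapping groups (0.65, adjusted p = 0.447). The value rested on WT replicate 1: the log2 fold change was -0.03 without that library and 1.33 without WT replicate 2. Another entry of Srp54a had 1.76 and 1.87 FPKM in WT and 4.45 and 2.04 FPKM in cKO. Its log2 fold change was 0.53, and 0.11 without cKO replicate 1. Of the 31 translocation genes 16 were above and 2 below WT in both cKO libraries, beside 27.2% and 28.7% of all tested genes.

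The labelled cell type was checked against marker genes. The 7 T cell markers summed to 907 and 862 FPKM in WT and 1213 and 1300 FPKM in cKO, and the 6 Th17 markers to 4286 and 3925 FPKM in WT and 3261 and 3114 FPKM in cKO. The first sum was higher and the second lower in both cKO libraries, but neither change ran through its whole list. Il17f made up most of the Th17 sum, at 3318 and 3107 FPKM in WT and 2442 and 2380 FPKM in cKO. Cd5 was the largest part of the T cell sum and of its rise. Cd3e went against its sum, at 21.4 and 22.0 FPKM in WT and 17.8 and 21.2 FPKM in cKO. Il21, given below, went against the Th17 sum. Il17a, a defining Th17 cytokine, had 757 and 628 FPKM in WT and 521 and 479 FPKM in cKO. With limma none of the 13 genes passed. With voom and with the GC correction 3 of them did, namely Cd5, a surface receptor of T cells (378 and 318 FPKM in WT, 561 and 675 in cKO, adjusted p = 0.0237 with voom and 0.0307 with the correction), the cytokine gene Il21 (138 and 117 FPKM in WT, 244 and 202 in cKO, 0.0255 and 0.0471), and the chemokine receptor gene Ccr6 (26.6 and 28.0 FPKM in WT, 15.9 and 17.4 in cKO, 0.0195 and 0.0283). Cd5 and Il21 were higher in cKO and Ccr6 was lower. These differences lay between the same libraries as those of the ER genes, and their part in the ER values was not tested. Of the B cell list, a type found among antigen presenting cells and rich in ER when it matures, 0 of 8 genes reached a mean of 1 FPKM, and the summed level was 0.985 to 1.30 FPKM in WT and 1.08 to 1.29 FPKM in cKO. A mean of 1 FPKM was reached by 3 of the 7 plasma cell genes found, namely Irf4, Sdc1 and Igkc, while Jchain, Prdm1 and Ighg1 were under 1 FPKM in each library and Tnfrsf17 was at 0. Sdc1 had 1.11 and 1.32 FPKM in WT and 0.892 and 1.00 FPKM in cKO, and Igkc 1.54 and 1.38 FPKM in WT and 1.02 and 0.775 FPKM in cKO, both below WT in each cKO library. The list summed to 248 and 266 FPKM in WT and 187 and 189 FPKM in cKO, nearly all of it Irf4, which activated T cells also express. Macrophage and dendritic cell lists summed to less than 1 FPKM in each library, with Clec9a and Siglech at 0, and so did the NK cell and granulocyte lists, with Klrb1c, Ncr1, S100a8 and S100a9 at 0. The CD8 T cell list summed to 7.61 and 8.24 FPKM in WT and 9.29 and 10.2 FPKM in cKO.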

How the data were processed

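The authors deposited FPKM per gene for 4 libraries, with coordinates, length and biotype, per the file headers. Per the submitters' processing notes, the tool was featureCounts 1.5.0-p3 and the builds were GRCm38 and mm10. For the aligner, annotation release, strand setting and FPKM tool, the entry is: not given in the sources used here. Reads from overlapping or antisense genes therefore cannot be told apart, which concerns Manf (shared with Dcaf1), Derl2 (Mis12), Syvn1 (Mrpl49), Eif2ak3, Ppp1r15a, Ppp1r15b, Hsp90b1, Dnajb9, Pdia3, Pdia4, Pdia6, Sec61a1, Sec63 and Ssr2 among the members. Gene length was taken from the same table, and GENCODE M21 gave transcript GC content for all 38 members.

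Each FPKM times its gene length, divided by the value of 1 read in that library (estimated from low values), gave whole reads, within 0.01 read, in 100% of values above 0. The recovered reads sum to between 18517487 and 20387948 per library, and members had 39 to 47688 reads per library. In WT they were 19347055 and 18517487, under the library sizes that the FPKM imply, 1.9568e+07 and 1.91053e+07. In cKO they were 20387948 and 19521977, over the implied 2.03171e+07 and 1.93931e+07. The FPKM were therefore not scaled by plain read totals. Beside a scaling by gene-assigned reads, they place cKO higher relative to WT.

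limma 3.58.1 (R 4.3.3) was fitted to log2(FPKM + 1) where the mean was at least 1 FPKM, with a variance trend, Benjamini-Hochberg adjustment over all tested genes at 0.05, two-sided, and no block. Fold changes on this scale understate those of low genes. Intervals at 95% are unadjusted. The procedure was tested on simulated data with a fixed spread between libraries. There limma recovered 0% of 1.2-fold, 20.8% of 1.5-fold and 93.6% of 2-fold changes. The absence of a call for a member therefore does not show equal levels. Members and lists were chosen with earlier results of these data known. Values in every library are given for the sensors and for the 3 largest absolute log2 fold changes in each role, and from each further list the most changed member where none passed. Other members and the 4 PP2A genes were added by name after their values were seen.

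Alternatives were pseudocounts of 0.1 and 5, other filters, TPM and median-of-ratios scaling, other variance settings, a replicate block, voom on recovered reads, a GC correction by loess, protein-coding genes only and the omission of each library.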

Additional observations from a re-analysis of the deposited data

How the results depend on the processing

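No member was called in either direction as reported, nor under 14 of the 17 alternatives. The GC correction called 1 member higher, Xbp1, which was lost when the replicate block was added, and leaving out 1 library gave 0 to 13 members higher and 0 to 1 lower. The members' median log2 fold change of 0.17 was 0.0861 in TPM and 0.11 to 0.21 with a library left out. The other ER genes had 1 called higher with voom, with the GC correction and with protein-coding genes, and 0 to 28 higher and 0 to 5 lower with a library left out. For all tested genes the calls were 284 higher and 263 lower with voom, 249 and 266 with the GC correction, 259 and 241 with protein-coding genes, and 25 and 1 in TPM. Lower calls were 15 at a pseudocount of 0.1 and 49 at a pseudocount of 5. Without a filter limma called 0 and 0 of 21807 genes (1543 higher and 1469 lower at an unadjusted p under 0.05), and omissions gave 49 to 1390 higher and 6 to 1614 lower.

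The replicate numbers are shared by the genotypes, but nothing in the labels ties same-numbered libraries, and the correlation of the WT difference with the cKO difference over genes was -0.09. With a replicate block 0 members were called, and over all genes 154 were higher and 73 lower. With the block and the GC correction together they were 154 and 99. 

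Sign turned in 17 of 644 values, all for 10 members whose log2 fold change was at most 0.13 in size, and none of these passed. In TPM these were Ern1 -0.0706, Atf6 -0.0205, Edem1 -0.01, Derl1 -0.0394 and Derl2 -0.0155. With the GC correction, with or without the block, they were P4hb 0.0051, Derl2 -0.0097 and Ssr2 0.0214. Over the omissions of a library the range was -0.0385 to 0.0694 for Ern1 (below 0 without WT replicate 2 or cKO replicate 2), -0.024 to 0.166 for Wfs1 (below 0 without WT replicate 1), -0.0417 to 0.293 for Hspa13 and -0.0182 to 0.213 for Ssr1 (both below 0 without cKO replicate 1), and -0.0457 to 0.0024 for P4hb (above 0 without cKO replicate 2). The cause was not tested.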
